A study of Homo sapiens with 54 samples.

Results

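The genes described here encode the subunits of the mitochondrial respiratory chain and ATP synthase. They were chosen by symbol (MT-ND, MT-CO, MT-ATP, MT-CYB, NDUFA to NDUFC, NDUFS, NDUFV, SDHA to SDHD, UQCR, COX4I to COX8, ATP5F1, ATP5M and ATP5P). Left out were 8 NDUFAF assembly factors and 4 members on a stretch of chromosome 7. The reason for leaving out that stretch is not given here. The rule used no measured value, but it was set with earlier results of these data known. The annotation held 98 genes chosen in this way, and 96 of them were among the 31835 genes counted. Of these, 13 are encoded by the mitochondrial genome and 83 by the nucleus. The nuclear members comprised 35 genes of complex I, 4 of complex II, 9 of complex III, 18 of complex IV and 17 of complex V, and the mitochondrial members 7 of complex I, 1 of complex III, 3 of complex IV and 2 of complex V.

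The respiratory chain passes electrons from NADH (complex I) and succinate (complex II) through complex III to oxygen at complex IV, and the proton gradient built on the way drives ATP synthesis by complex V. Complexes I, III, IV and V are mosaics of both genomes, whereas every complex II subunit is nuclear. The mitochondrial genes are read from each strand as long polycistronic transcripts that are cut mostly at intervening tRNAs. Most of the mRNAs are polyadenylated, and all are translated inside the organelle. The nuclear genes are transcribed one by one, and their products are imported. Amounts of the mitochondrial RNAs therefore depend on transcription by POLRMT with TFAM and on the stability of each cut product. Activated B cells are known to raise respiration together with growth.

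RNA came from OCI-Ly1, an established human germinal-centre-type B cell lymphoma line that carries the t(14;18) translocation. Per the study, OCI-Ly1 itself harbours a variant in the DNA-binding domain of STAT6, so all groups share it. The genotypes below name the expressed construct only. The cells stably expressed Flag-tagged STAT6, the transcription factor downstream of the IL-4 receptor, either as wild type (STAT6 WT) or with 1 of 3 substitutions in the DNA-binding domain, D419G, D419N or N421K (together STAT6 MUT). All cells received IL-4 at 10 ng/ml for 20 min, were washed, and were lysed 2, 4 or 8 h later, so that no group was without IL-4. The 54 libraries comprised 9 STAT6 WT and 9 STAT6 MUT libraries at each time point, with 3 of each mutant. The labels number biological replicates, but not how many independent transductions they represent. Transduced populations and genotypes therefore cannot be told apart. The time points occupied different rows of the plate, so that time and plate row cannot be told apart either.

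Libraries were made by prime-seq, which tags the 3′ end of each mRNA with a unique molecular identifier (UMI), and held 161518 to 2978715 UMIs (median 885300). The total was under 0.5 of that median in 8 libraries, 6 of them STAT6 MUT and 2 STAT6 WT. The 8 B cell markers examined, among them CD79A and PAX5, had UMIs in all 54 libraries, and of the markers of other cells CD14, LYZ, COL1A1 and HBB had a median of 0. PECAM1, an endothelial marker also found on leukocytes, had a median of 4.29 CPM and UMIs in 50 of 54 libraries. Levels below are UMI counts scaled to library size with TMM factors (CPM). They compare 1 gene between libraries and not different genes, and in bulk RNA fewer cells with a transcript and less of it per cell cannot be told apart. A change was called by edgeR's quasi-likelihood test at a Benjamini-Hochberg adjusted p under 0.05 over all genes tested. Of the 96 members, 90 had enough counts for the test across time points (13 mitochondrial, 77 nuclear). The 6 others were all complex IV genes of restricted expression (COX4I2, COX6A2, COX6B2, COX7B2, COX8C and NDUFA4L2). NDUFA4L2 reached at most 17 UMIs in a library and the remaining 5 at most 2.

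The compact layout of the mitochondrial genome bears on how its genes can be counted, so a few stretches are shown. MT-ATP8 (chrM:8366-8572) and MT-ATP6 (chrM:8527-9207) share 46 bases in different reading frames and are carried by the same cut transcript. In the stretch chrM:8517-8582 (GRCh38, plus strand) the shared bases are in capitals.
MT-ATP8 and MT-ATP6 overlap: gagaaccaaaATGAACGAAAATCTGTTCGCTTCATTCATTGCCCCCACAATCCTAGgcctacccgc
MT-ND4L (chrM:10470-10766) and MT-ND4 (chrM:10760-12137) overlap in the same way by 7 bases. MT-ND6 (chrM:14149-14673) is the only member read from the other strand, and it abuts MT-ND5 (chrM:12337-14148) end to end. The use of strand in counting is not given in the sources used here. UMIs of MT-ATP8 and MT-ATP6, and of MT-ND6 and antisense RNA at its locus, are thus not separable.

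A second limit was visible in the counts. A copy of part of the mitochondrial genome lies in the nuclear genome at chr1:629062-634922, and its 6 annotated pseudogenes took up 645417 UMIs, or 97.7% of all UMIs on the 124 pseudogenes named after mitochondrial protein genes. MTCO1P12 alone was assigned 260292 UMIs against 212055 for MT-CO1, and their sequences were 98.7% identical, with no difference in the last 129 bases. The ends of both genes are shown, since 3′ counting reads this region (MT-CO1, chrM:7306-7445; MTCO1P12, chr1:632477-632616; both plus strand; capitals mark the base that differs).
MT-CO1: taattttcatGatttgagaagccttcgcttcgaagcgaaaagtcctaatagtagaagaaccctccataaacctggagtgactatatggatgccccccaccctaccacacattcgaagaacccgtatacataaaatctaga
MTCO1P12: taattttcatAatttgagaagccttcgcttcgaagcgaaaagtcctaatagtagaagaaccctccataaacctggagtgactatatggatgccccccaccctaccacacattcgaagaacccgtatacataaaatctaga
MTCO3P12 lacks the last 237 bases of MT-CO3 and was assigned 138577 UMIs against 391448. MTATP6P1 differs from MT-ATP6 at 1 of the last 60 bases and was assigned 76411 UMIs against 164868. What set these splits was not tested. MT-ND2 and its copy differ at 3 bases of the last 60, in capitals here (MT-ND2, chrM:5432-5511, and MTND2P28, chr1:630602-630681, both plus strand). MTND2P28 was assigned 4083 UMIs against 21658 for MT-ND2.
MT-ND2: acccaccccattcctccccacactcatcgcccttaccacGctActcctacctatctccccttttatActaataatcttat
MTND2P28: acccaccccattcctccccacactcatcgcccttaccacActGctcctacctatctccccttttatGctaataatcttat
The share of UMIs that fell on pseudogenes was similar in STAT6 WT and STAT6 MUT at 2 h, with medians of 57.0% and 56.5% for MT-CO1 and of 15.0% and 15.2% for MT-ND2. At 8 h, the share for MT-CO1 was 53.8% and 51.5%, and for MT-CO2 it went from 22.2% to 19.3% in STAT6 WT and from 21.0% to 17.5% in STAT6 MUT between 2 and 8 h. For MT-ND2 the median share at 8 h was 15.2% in STAT6 WT and 17.9% in STAT6 MUT. Counts of MT-CO1, MT-CO2, MT-CO3, MT-ATP6, MT-ND1 and, to a smaller extent, MT-ND2 are therefore counts of only a part of their molecules. Results that change when pseudogene counts are added are named beside them.

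Counted without pseudogenes, respiratory chain transcripts took up a similar share of the RNA in both genotypes. The 13 mitochondrial genes held 2.58% to 3.94% of all UMIs of a library (median 3.05%) and the 83 nuclear genes 1.74% to 2.12% (median 1.89%). The medians of the mitochondrial share at 2, 4 and 8 h were 3.03%, 3.15% and 2.94% in STAT6 WT and 3.12%, 3.01% and 2.97% in STAT6 MUT, and the ranges of the groups overlapped at each time point. UMIs on pseudogenes of mitochondrial genes, rRNA genes included, had medians of 1.18%, 1.27% and 1.04% in STAT6 WT. In STAT6 MUT these medians were 1.27%, 1.2% and 0.86%, again with overlapping ranges. The shares and ratios given here leave these UMIs out. The nuclear share stayed within narrower limits, with group medians from 1.84% to 1.94%. The ratio of mitochondrial to nuclear UMIs ranged from 1.30 to 2.09 (median 1.62). Its median was 1.62 in D419G, 1.43 in D419N and 1.69 in N421K (n = 9 each), against 1.65 in STAT6 WT (n = 27), with overlapping ranges. The mitochondrial share tended to be higher in deeper libraries (Spearman's rho 0.462 over 54 libraries, 0.588 in STAT6 WT and 0.431 in STAT6 MUT), and the part of depth in the results below was examined by adding the total count to the fit.

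**Figure D1:**
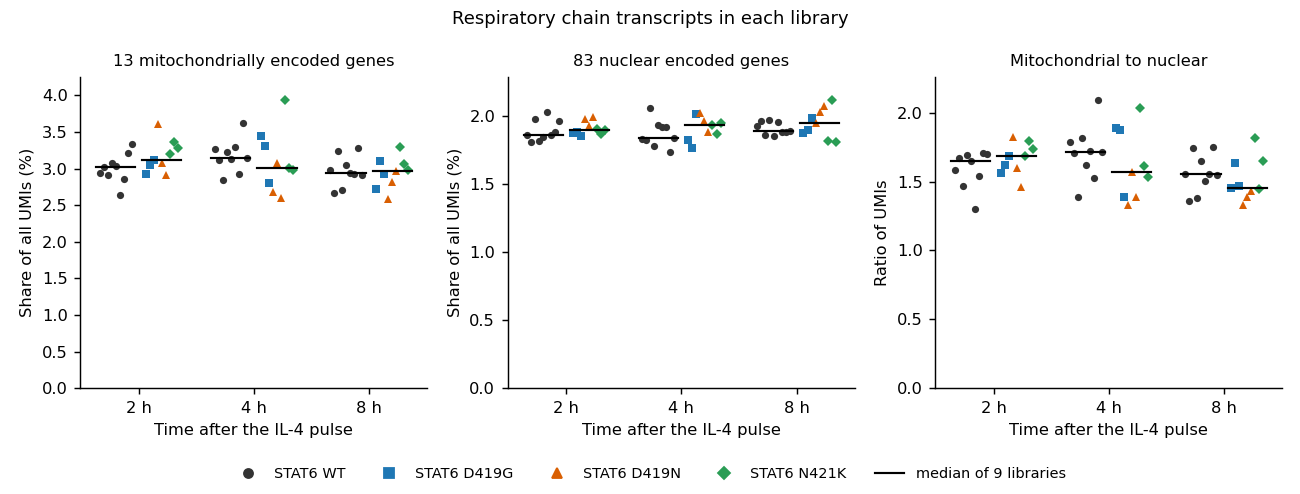
Share of all UMIs on the 13 mitochondrial genes (left) and on the 83 nuclear genes (middle), in percent, and the ratio of these UMIs (right), for each library by time point. Points are libraries, coloured by STAT6 genotype, and lines are medians of 9 libraries. The groups overlap in all 3 panels, with mitochondrial shares of 2.58% to 3.94%.

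The first comparison asked whether mutant STAT6 changes respiratory chain genes relative to STAT6 WT over the 3 time points. Only a few nuclear subunits were called, all of them higher in STAT6 MUT, and none of the mitochondrial genes was. Members called were 6 of 77 nuclear genes and 0 of 13 mitochondrial genes, where 13.4% of all 9261 genes tested were called (6.74% higher and 6.62% lower in STAT6 MUT). The median log2 fold change was 0.02 over the nuclear members, 0.04 over the mitochondrial members and 0.00 over all genes. Beside the count of 0, 1 mitochondrial gene had an unadjusted p under 0.05 and DESeq2 called 0.

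NDUFS4, an accessory subunit of complex I that is needed for assembly of its NADH-binding module, stood out. At 2 h its level was 20.5 to 39.7 CPM in STAT6 WT (median 24.7) and 33.2 to 45.6 CPM in STAT6 MUT (median 38.8). The 3 D419G libraries had 38.8, 44.7 and 33.2 CPM, the 3 D419N libraries 40.4, 45.6 and 36.1 CPM, and the 3 N421K libraries 36.4, 44.8 and 36.1 CPM. At 2 h, 4 of the 9 STAT6 MUT values thus exceeded the STAT6 WT range, and 6 of the 9 STAT6 WT values fell short of the STAT6 MUT range. Across time points NDUFS4 was 1.51-fold higher (log2 fold change 0.60, SE 0.09, adjusted p = 2.43e-07, edgeR). Taken by time point, the log2 fold change was called at 2 h (0.54, adjusted p = 0.00254) and 4 h (0.82, adjusted p = 0.00224) but not at 8 h (0.45, adjusted p = 0.101). An exact permutation test on log2 CPM gave adjusted p = 0.0202 at 2 h, 0.757 at 4 h and 0.226 at 8 h. The difference of mean log2 CPM at 4 h was 0.37, so the 4 h call rests on the edgeR test only. The 4 h levels were 10.1 to 33.4 CPM in STAT6 WT (median 22.4) and 0 to 49.4 CPM in STAT6 MUT (median 38.7). At 4 h, 6 of the 9 STAT6 MUT values exceeded the STAT6 WT range, and 0 of the 9 STAT6 WT values fell short of the STAT6 MUT range. The value of 0, from a shallow library, enters the exact test and the difference of means.

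NDUFS4 is a low-count gene, with 0 to 75 UMIs per library (median 27.5). The value of 0 came from the shallow D419G library of replicate 3 at 4 h with 175878 UMIs in total, in which a count of 0 allows a level of up to 16.5 CPM (3 counts, counting error only). The other 26 STAT6 MUT libraries had UMIs of NDUFS4. The difference across time points kept its direction and its side of the threshold in all 25 alternative analyses (log2 fold changes of 0.53 to 0.67, adjusted p at most 0.00214). At 4 h the call was lost without replicate number 1 (adjusted p = 0.0613), without N421K (adjusted p = 0.0642) and with replicate number as a block (adjusted p = 0.112). That block takes most STAT6 WT libraries out of the comparison, since most replicate numbers occur only in STAT6 WT.

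**Figure D2:**
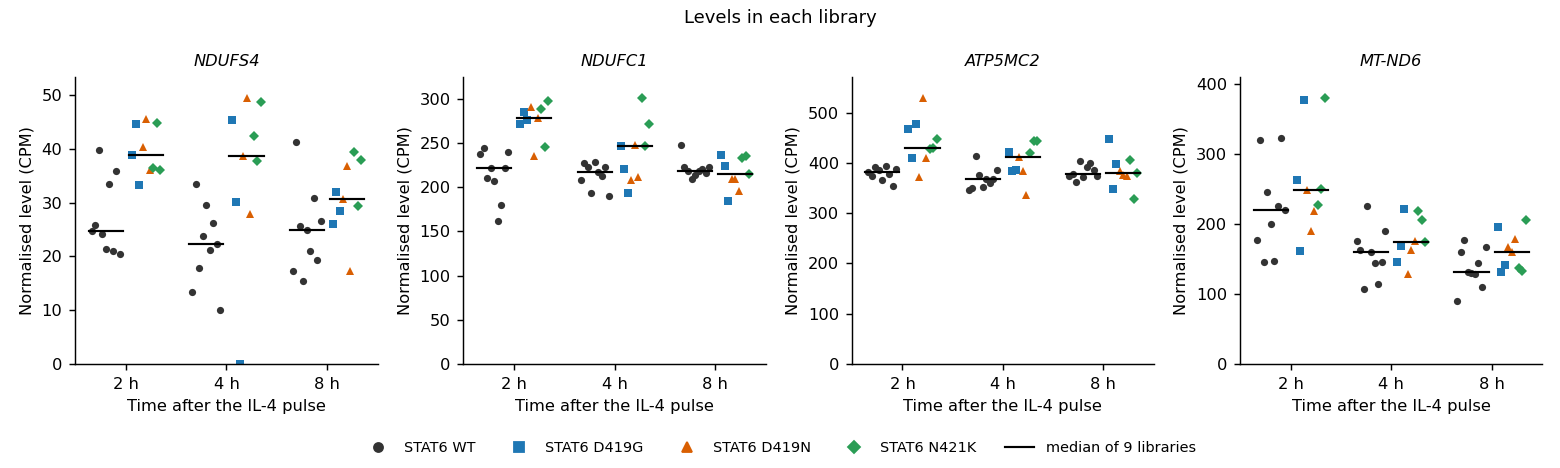
Level in CPM of NDUFS4, NDUFC1, ATP5MC2 and MT-ND6 in each library by time point, with the median of each group of 9 libraries as a line. NDUFC1 and ATP5MC2 separate the genotypes most at 2 h, where 8 of the 9 STAT6 MUT values exceed the STAT6 WT range for both genes, and MT-ND6 is lower at 4 and 8 h than at 2 h in both genotypes.

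The promoter window of NDUFS4 is shown because this gene changed most. It spans chr5:53560389-53560688 (GRCh38, plus strand, RefSeq), from 250 bases before the start site, and the capitals mark AAGATGGCG, a motif of YY1, a zinc finger factor known at nuclear genes for mitochondrial proteins. The motif began at base 22 after the start.
NDUFS4 promoter: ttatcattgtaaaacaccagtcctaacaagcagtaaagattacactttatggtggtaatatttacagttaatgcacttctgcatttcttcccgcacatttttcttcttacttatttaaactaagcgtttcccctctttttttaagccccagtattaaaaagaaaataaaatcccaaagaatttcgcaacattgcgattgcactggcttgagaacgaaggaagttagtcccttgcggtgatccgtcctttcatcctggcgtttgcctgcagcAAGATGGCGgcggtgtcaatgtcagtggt
On either strand, AAGATGGCG was present in 10 of 78 promoter windows of the 67 nuclear members with a RefSeq entry (12.8%) and in 1.75% of all 35116 windows of this length. CCGGAAG, the core site of ETS factors such as GABP, was in 28.2% of member windows and 10.3% of all windows. The STAT6 motif TTCNNNNGAA was in 5.13% of member windows and 6.44% of all windows, and the general STAT motif TTCNNNGAA was in 6.41% and 7.66%. Of the called members with an entry, NDUFC1 held the STAT6 motif and COX8A the general STAT motif, and NDUFS4 held neither.

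The other 5 called genes differed by less than 1.25-fold. NDUFC1, a small membrane-arm subunit of complex I, had 161.6 to 244.9 CPM in STAT6 WT (median 221.7) and 235.6 to 297.4 CPM in STAT6 MUT (median 278.3) at 2 h, and 8 of the 9 STAT6 MUT values exceeded the STAT6 WT range. By 8 h the ranges were 209.2 to 247.3 CPM and 184.4 to 236.4 CPM, and no STAT6 MUT value did so (0 of 9). Across time points the log2 fold change was 0.17 (SE 0.04, adjusted p = 0.00125). The 2 h value was 0.33 (adjusted p = 0.000309). It was followed by 0.19 after 4 h (adjusted p = 0.147) and −0.02 after 8 h (adjusted p = 0.994). Without N421K the call across time points was lost (adjusted p = 0.0905), and 1 member in all was then called.

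ATP5MC2, 1 of 3 genes for the same c-ring protein of ATP synthase, followed a similar course. At 2 h it had 353.8 to 393.3 CPM in STAT6 WT (median 381.0) and 371.5 to 528.2 CPM in STAT6 MUT (median 429.9), and 8 of the 9 STAT6 MUT values exceeded the STAT6 WT range. Its log2 fold change across time points was 0.12 (SE 0.03, adjusted p = 0.00471). The value of 0.20 at 2 h was called (adjusted p = 0.012), and those after 4 h (0.14, adjusted p = 0.212) and 8 h (0.02, adjusted p = 0.936) were not. The other c-ring genes were not called across time points, ATP5MC1 with −0.03 and ATP5MC3 with 0.03.

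COX7A2L, a factor of supercomplex assembly of the complex IV family, passed narrowly, with a log2 fold change of 0.11 (adjusted p = 0.0494). This call was lost in 17 of 25 alternatives. COX8A, the ubiquitous form of a small complex IV subunit, had a log2 fold change of 0.10 (adjusted p = 0.0168) and lost the call in 4 of 25. Its 4 h levels were 266.3 to 345.2 CPM in STAT6 WT and 307.4 to 403.8 CPM in STAT6 MUT, and 5 of the 9 STAT6 MUT values exceeded the STAT6 WT range.

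For most subunits any difference was bounded within narrow limits. For 70 of the 71 nuclear members that were not called, the 95% interval of the fold change across time points lay within 1.25-fold in either direction, and the same held for 10 of 13 mitochondrial members. No complex II gene (0 of 4) and no nuclear complex III gene (0 of 9) was called. SDHC, the membrane anchor of complex II, had a log2 fold change of 0.01 (95% interval −0.09 to 0.12), and UQCRH, the hinge protein of complex III, 0.03 (−0.03 to 0.09). Reads of UQCRH can be split with its near-identical copy UQCRHL, and those of ATP5MG with ATP5MGL. MT-ND6 had the largest mitochondrial value, 0.18 (SE 0.07, adjusted p = 0.0829), and MT-CO1 the lowest, −0.07 (SE 0.07, adjusted p = 0.543), whose sign turned without D419N or without replicate number 3.

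Split by time point, some mitochondrial genes were higher in STAT6 MUT at 2 h. Then the fitted values of all 13 were positive (median log2 fold change 0.17), against 56 of 77 nuclear members (median 0.04) and 4464 of all 8651 genes (median 0.01), although MT-CO1 was at 0.02 and turned negative with pseudogene counts added or with scaling by total counts only. Calls comprised 4 of 13 mitochondrial genes and 3 of 77 nuclear genes, all higher in STAT6 MUT, where 8.59% of all genes were called (3.92% higher). The nuclear genes were the NDUFC1, NDUFS4 and ATP5MC2 described above. The mitochondrial genes share transcripts and libraries, so counts of same-sign values here and below are not counts of independent observations. Between libraries of the same construct and time point, the median log2 level had an SD of 0.16 over mitochondrial and 0.06 over nuclear members.

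The mitochondrial genes called at 2 h came from complexes I, III and V. MT-ND4, a proton-pumping subunit of complex I, had 2607 to 3383 CPM in STAT6 WT (median 2901) and 2935 to 3703 CPM in STAT6 MUT (median 3358), a log2 fold change of 0.17 (SE 0.05, adjusted p = 0.0183). MT-ND3, a small subunit at the hinge of complex I, had 182.9 to 381.0 CPM (median 253.2) and 247.0 to 488.9 CPM (median 319.4), a log2 fold change of 0.31 (SE 0.10, adjusted p = 0.0313). The ranges overlapped for both, and 3 and 1 of the 9 STAT6 MUT values exceeded the STAT6 WT range. MT-CYB, the cytochrome b of complex III, had 1814 to 2668 CPM (median 2375) and 2281 to 3060 CPM (median 2707), and 5 of the 9 STAT6 MUT values exceeded the STAT6 WT range. Its log2 fold change was 0.18 (SE 0.05, adjusted p = 0.0259). MT-ATP6, the a subunit of ATP synthase, had 2616 to 3296 CPM (median 2887) and 2820 to 3929 CPM (median 3262), a log2 fold change of 0.16 (SE 0.05, adjusted p = 0.0374). In the exact permutation test at 2 h, adjusted p was 0.0432 for MT-ND4, 0.151 for MT-ND3, 0.0696 for MT-CYB and 0.061 for MT-ATP6. For the nuclear NDUFC1 and ATP5MC2 that test gave adjusted p = 0.0104 and 0.0121.

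The other mitochondrial genes at 2 h were not called. MT-ND4L had a log2 fold change of 0.36 (adjusted p = 0.056), MT-ATP8 0.33 (adjusted p = 0.139), MT-CO3 0.12 (adjusted p = 0.11) and MT-CO2 0.04 (adjusted p = 0.65). MT-CO1, the catalytic subunit of complex IV, was uneven within STAT6 MUT. It had 2960 to 4164 CPM in STAT6 WT (median 3974), and 6 of the 9 STAT6 MUT values exceeded that range, but 2 D419N libraries had 1747 and 2170 CPM. The mitochondrial rRNAs moved in the same direction without passing the test (MT-RNR2, log2 fold change 0.18, adjusted p = 0.0574).

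The 2 h calls depended on which libraries were included. Without N421K or without replicate number 1, none of the mitochondrial genes was called (0 of 13). Without D419N, without replicate number 3 or without replicate number 6, 1 was called, and DESeq2 also called 1. Numbers 1 and 3 each occur in every mutant, so leaving 1 of them out removes 1 library of each mutant besides 1 of STAT6 WT. Number 6 occurs only in STAT6 WT. Without the 8 shallow libraries 2 were called, and with the total count as a term 9. STAT6 WT and STAT6 MUT libraries at 2 h had median totals of 738000 and 946900 UMIs.

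At 4 h, NDUFS4 was the only member called (0 of 13 mitochondrial and 1 of 76 nuclear members, against 3.97% of all genes, 1.96% higher). Unadjusted p-values were under 0.05 for 0 mitochondrial members and 5 nuclear members. The median log2 fold change was −0.03 over mitochondrial and 0.03 over nuclear members. At 8 h no member was called (0 of 89), against 1.44% of all genes. Unadjusted p-values were under 0.05 for 1 mitochondrial and 7 nuclear members at 8 h, and DESeq2 called 0. Without D419N or without the 8 shallow libraries 1 nuclear member was called, and without replicate number 1 there were 2. The median log2 fold change was −0.03 over mitochondrial and −0.02 over nuclear members. MT-ND4 at 8 h had 2740 to 3643 CPM in STAT6 WT (median 3259) and 2663 to 3646 CPM in STAT6 MUT (median 3349), so that the ranges nearly coincided (log2 fold change 0.00, 95% interval −0.13 to 0.13). The 95% interval lay within 1.25-fold for 8 of 13 mitochondrial members at 2 h, 9 at 4 h and 7 at 8 h.

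**Figure D3:**
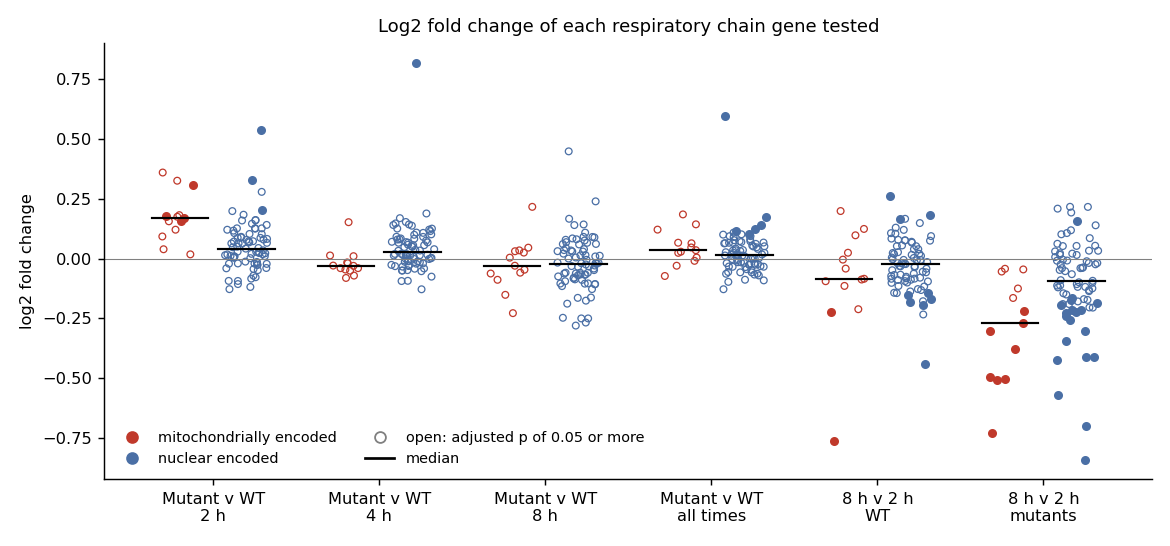
Log2 fold change of each tested member in 6 comparisons, mitochondrial genes in red and nuclear genes in blue, with filled points for an adjusted p under 0.05 and lines for medians. The mitochondrial median lies at 0.17 for STAT6 MUT against STAT6 WT at 2 h and at −0.27 for 8 h against 2 h in STAT6 MUT.

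The second comparison followed the members from 2 to 8 h after the IL-4 pulse within each genotype. In STAT6 WT, few members changed in a transcriptome in which 30.7% of all 9142 genes were called (15.2% higher and 15.6% lower). Of the mitochondrial genes 2 of 13 fell (MT-ND6 and MT-CO1), and of the nuclear genes 9 of 77 were called, 3 higher and 6 lower. The median log2 fold change was −0.08 over mitochondrial and −0.02 over nuclear members. The course was not even, since from 2 to 4 h 11 of 13 mitochondrial values were positive (median 0.12) and MT-ND4 rose by 0.16 (adjusted p = 0.0292, against 6.43% of all genes higher). From 4 to 8 h 12 of 13 were negative (median −0.14).

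MT-ND6, a complex I subunit and the only mitochondrial protein encoded on the light strand, had the largest change. In STAT6 WT it had 145.1 to 323.0 CPM at 2 h (median 219.9), 107.1 to 225.0 CPM at 4 h (median 159.7) and 89.8 to 176.6 CPM at 8 h (median 131.7). From 2 to 8 h it fell by 0.76 on the log2 scale (SE 0.11, adjusted p = 1.65e-07). In STAT6 MUT it had 161.4 to 378.8 CPM (median 247.7), 128.9 to 220.6 CPM (median 174.4) and 131.4 to 205.8 CPM (median 160.0), and it fell by 0.73 (SE 0.10, adjusted p = 1.14e-07). The step from 2 to 4 h was called in both genotypes (log2 fold changes of −0.59 and −0.61, against 13% and 8.43% of all genes called, 6.53% and 3.68% lower) and the step from 4 to 8 h in neither (−0.17 and −0.12). MT-ND5, its neighbour on the opposite strand, was not called in either genotype (log2 fold changes from 2 to 8 h of −0.00 and −0.16). As stated above, UMIs of MT-ND6 and of antisense RNA at its locus are not separable, so these falls may not be those of its mRNA alone.

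MT-CO1 changed later. In STAT6 WT it had 2960 to 4164 CPM at 2 h (median 3974), 3464 to 4954 CPM at 4 h (median 4309) and 2036 to 4327 CPM at 8 h (median 3303). It fell by 0.22 on the log2 scale from 2 to 8 h (SE 0.08, adjusted p = 0.0273). This call was lost in 5 of 18 alternatives, with DESeq2 (adjusted p = 0.164), with scaling by total counts only (adjusted p = 0.0543) and without replicate number 2, 4 or 9 (adjusted p = 0.0589, 0.153 and 0.148). The step from 4 to 8 h was called in STAT6 WT (−0.38, adjusted p = 0.00141, against 5.88% of all genes, 2.65% lower) and in STAT6 MUT (−0.45, adjusted p = 0.0028, against 11.9% of all genes, 6.26% lower). The fall was −0.32 in STAT6 WT and −0.49 in STAT6 MUT from 2 to 8 h with pseudogene counts added.

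Nuclear members that changed in STAT6 WT belonged to complexes I, III, IV and V. NDUFV2, an iron-sulfur subunit of the NADH-binding module, had 23.2 to 39.6 CPM at 2 h (median 32.5) and 17.4 to 28.6 CPM at 8 h (median 23.3), and it fell by 0.44 on the log2 scale (SE 0.12, adjusted p = 0.00457). NDUFB1 and NDUFB8 of complex I fell by 0.19 and 0.17, UQCRC2 and UQCR11 of complex III by 0.18 and 0.15, and COX8A by 0.15. NDUFA8 rose by 0.26 (adjusted p = 0.00935), NDUFAB1, which is also the mitochondrial acyl carrier protein, by 0.18 (adjusted p = 0.0423), and ATP5MC1 by 0.16 (adjusted p = 0.0327). No complex II gene was called (0 of 4). The calls of NDUFA8 and NDUFV2 held in all 18 alternatives, whereas those of NDUFAB1 and UQCR11 were lost in 9, that of NDUFB8 in 10 and that of UQCRC2 in 11. Members called numbered 6 without replicate number 8 or 9, and 7 without replicate number 1 or 7.

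In STAT6 MUT, most of the mitochondrial genes and a minority of the nuclear genes were lower at 8 h than at 2 h. From 2 to 8 h, 8 of 13 mitochondrial genes were called, all lower, and 19 of 77 nuclear genes, 18 lower and 1 higher, where 34.1% of all 9370 genes were called (17% higher and 17.1% lower). The fitted values of all 13 mitochondrial genes were negative (median −0.27), although those of MT-CO2, MT-ND1 and MT-ND4, which were not called, turned slightly positive with scaling by total counts only. Of the nuclear members 55 of 77 were negative (median −0.09, or −0.02 with scaling by total counts only), and the median over all genes was 0.00.

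Mitochondrial transcripts of every complex that contains them were among those that fell in STAT6 MUT. MT-ND2, a pumping subunit of complex I, had 352.5 to 489.5 CPM at 2 h (median 417.3) and 144.1 to 407.3 CPM at 8 h (median 254.8), and it fell by 0.50 on the log2 scale (SE 0.11, adjusted p = 0.00017). The lowest of these 9 values at 8 h came from the shallowest library, D419N replicate 3. MT-ND3 had 247.0 to 488.9 CPM and 149.4 to 317.1 CPM and also fell by 0.50 (SE 0.13, adjusted p = 0.00155). MT-CYB fell by 0.22 (adjusted p = 0.0127), with 2281 to 3060 CPM at 2 h and 1839 to 2900 CPM at 8 h. The ranges at 2 and 8 h overlapped for these 3 genes.

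In complexes IV and V, MT-CO1 had 1747 to 4956 CPM at 2 h (median 4268) and 2311 to 4052 CPM at 8 h (median 2731), and it fell by 0.38 (adjusted p = 0.00405). MT-CO3 fell by 0.27 (adjusted p = 0.000488), with 6791 to 8623 CPM at 2 h and 5430 to 7093 CPM at 8 h. MT-CO2 was at 7922 to 9346 CPM and 7333 to 9332 CPM, so that its ranges nearly coincided (log2 fold change −0.05, adjusted p = 0.481). With pseudogene counts added, MT-CO2 was called too (−0.14, adjusted p = 0.0313). MT-ATP6 fell by 0.30 (adjusted p = 0.000641), with 2820 to 3929 CPM and 2179 to 3058 CPM. MT-ATP8, with 34.2 to 48.5 CPM at 2 h and 14.7 to 42.5 CPM at 8 h, fell by 0.51 (adjusted p = 0.0113). Its counts overlap those of MT-ATP6 as shown above. MT-ND2, MT-ND3, MT-ND6, MT-CO3 and MT-ATP6 stayed called in all 12 alternatives.

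Not every mitochondrial gene was called, and differences between the genes were not tested. MT-ND1, MT-ND4, MT-ND4L, MT-ND5 and MT-CO2 were not called in STAT6 MUT, with log2 fold changes of −0.04, −0.05, −0.13, −0.16 and −0.05. MT-ND4 had 2935 to 3703 CPM at 2 h and 2663 to 3646 CPM at 8 h, while MT-ND3, which lies before MT-ND4L on the same strand, was lower at 8 h. The mitochondrial rRNAs fell as well, MT-RNR1 by 0.40 (adjusted p = 2.81e-06) and MT-RNR2 by 0.23 (adjusted p = 0.00126) in STAT6 MUT, and MT-RNR1 by 0.30 (adjusted p = 0.000735) in STAT6 WT.

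**Figure D4:**
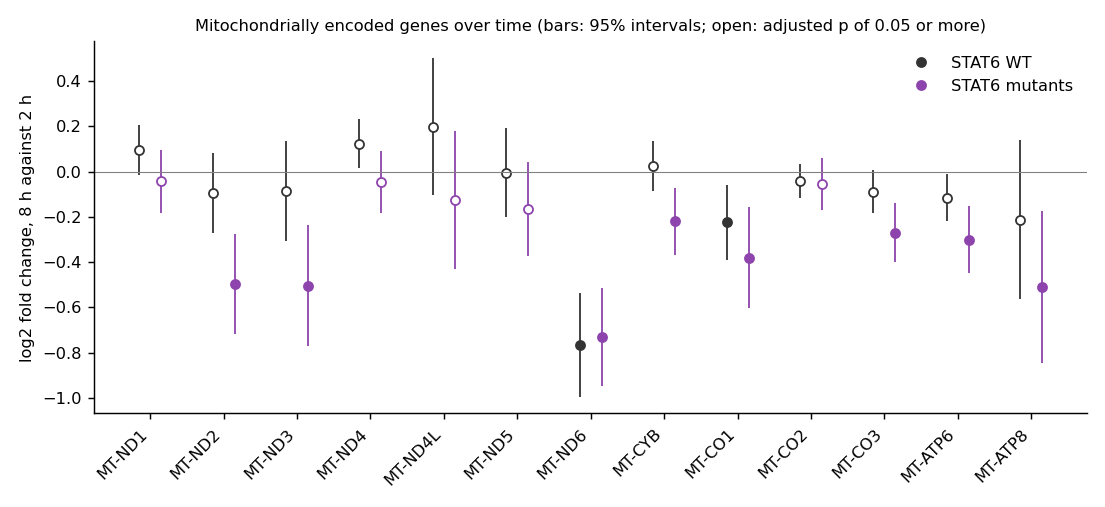
Log2 fold change from 2 to 8 h of the 13 mitochondrial genes in STAT6 WT (black) and STAT6 MUT (purple), with 95% intervals. Filled points have an adjusted p under 0.05, which are 2 genes in STAT6 WT and 8 in STAT6 MUT, and MT-ND6 is lowest in both.

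Among nuclear members in STAT6 MUT, the genes that fell comprised 7 of 35 in complex I, 1 of 4 in complex II, 2 of 9 in complex III, 4 of 12 in complex IV and 4 of 17 in complex V. NDUFV2 had 24.0 to 40.6 CPM at 2 h (median 29.6) and 4.90 to 28.4 CPM at 8 h (median 18.4), and it fell by 0.70 on the log2 scale (SE 0.16, adjusted p = 0.000447). The lowest value was 1 UMI in the shallow N421K library of replicate 2. NDUFA13, also known as GRIM-19, had 145.7 to 214.2 CPM and 69.2 to 173.7 CPM, and it fell by 0.41 (SE 0.09, adjusted p = 9.61e-05). NDUFB4 fell by 0.41, NDUFA3 by 0.43 and NDUFC1 by 0.34. NDUFA7 fell by 0.84, with a median of 9 UMIs per library.

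SDHA, the flavoprotein of complex II, had 75.6 to 121.6 CPM at 2 h and 57.6 to 92.1 CPM at 8 h in STAT6 MUT, and it fell by 0.22 (adjusted p = 0.0461). UQCRC2, a core protein of complex III, fell by 0.30 (adjusted p = 0.00561) and UQCR11 by 0.17. In complex IV, COX7B fell by 0.26 (adjusted p = 0.00386), COX6C by 0.21, NDUFA4 by 0.19 and COX6A1 by 0.19. In complex V, ATP5F1E fell by 0.23, ATP5PD by 0.22, ATP5MC2 by 0.17 and ATP5MGL, whose reads are uncertain, by 0.57. ATP5F1A, the alpha subunit of ATP synthase, was the only member called higher (0.16, adjusted p = 0.0418). The calls of ATP5F1A and SDHA were each lost in 7 of 12 alternatives, with adjusted p up to 0.196 and 0.259 and including any replicate number left out for ATP5F1A and number 2 or 3 for SDHA. Those of NDUFA4 and ATP5MC2 were lost in 5 of 12, and those of NDUFV2, NDUFA13, NDUFB4, NDUFC1 and ATP5MGL held in all 12. Of the 9 nuclear members called in STAT6 WT and the 19 called in STAT6 MUT, NDUFB1, NDUFV2, UQCR11 and UQCRC2 were called in both, each lower at 8 h.

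Values that moved with time are given here because they accompany these changes, and their part in them was not tested. The share of UMIs on 6 stress and chaperone genes had a median of 0.314% at 2 h and 0.573% at 8 h in STAT6 WT and of 0.319% and 0.544% in STAT6 MUT, and 5 of the 6 genes rose in each genotype. The median total count went from 738000 to 1119000 UMIs in STAT6 WT and from 946900 to 743100 UMIs in STAT6 MUT. With the total count as a term, 8 mitochondrial and 16 nuclear members were called in STAT6 MUT, and without the 8 shallow libraries 8 and 18. Without replicate number 3 they were 7 and 8. Among the 8 B cell markers 5 rose and 1 fell in STAT6 WT (median log2 fold change 0.20), and 6 rose and 1 fell in STAT6 MUT (median 0.38). In STAT6 MUT against STAT6 WT across time points 1 was higher and 4 were lower (median −0.14), against 6.74% and 6.62% of all genes. From 2 to 8 h, 15.2% of all genes rose and 15.6% fell in STAT6 WT, and 17% and 17.1% in STAT6 MUT.

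Although more members were called over time in STAT6 MUT, the difference between the genotypes in their time course did not pass the test. A genotype-by-time interaction was called for no member (0 of 90) and for 0.957% of all 9507 genes, and DESeq2 also called 0 members. Without replicate number 1, 1 nuclear member was called. Unadjusted p-values were under 0.05 for 2 mitochondrial members, MT-CYB (adjusted p = 0.358) and MT-ND2 (adjusted p = 0.403), and 6 nuclear members. The smallest were those of NDUFC1 (adjusted p = 0.0815), NDUFA13 (adjusted p = 0.204) and SDHD (adjusted p = 0.344). SDHD, the other membrane anchor of complex II, had log2 fold changes from 2 to 8 h of 0.12 in STAT6 WT and −0.17 in STAT6 MUT, neither called. NDUFA13 had −0.08 in STAT6 WT and −0.41 in STAT6 MUT.

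The third comparison took the 3 mutants separately over all time points. NDUFS4 was higher in each, with log2 fold changes of 0.45 in D419G (adjusted p = 0.0328), 0.60 in D419N (adjusted p = 0.0015) and 0.69 in N421K (adjusted p = 1.82e-06). These calls were lost in 5, 2 and 0 of 15 alternatives. Its median level was 24.2 CPM in STAT6 WT (n = 27) and 32.1, 36.8 and 37.9 CPM in D419G, D419N and N421K (n = 9 each). Members called were 0 of 13 mitochondrial and 2 of 77 nuclear genes in D419G (5.38% of all genes, 3.16% higher), 0 and 4 in D419N (2.75%, 1.49% higher), and 1 and 6 in N421K (13.7%, 6.76% higher and 6.92% lower). Since the mutants share the STAT6 WT libraries, these counts are not independent of each other. Unadjusted p-values were under 0.05 for 0 mitochondrial genes in D419G, 1 in D419N and 4 in N421K. The counts of members called were 0 in D419G without replicate number 1, 0 in D419N without replicate number 2, and 4 in N421K without replicate number 1 or 3.

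In D419G, ATP5MC2 was the other member called (log2 fold change 0.15, adjusted p = 0.0317), a call lost in 6 of 15 alternatives. In D419N, UQCR10 of complex III (0.21, adjusted p = 0.00569) and ATP5F1A (0.16, adjusted p = 0.0272) were higher, and the ATP5F1A call was lost in 6 of 15 alternatives. UQCR10 had 437.1 to 611.0 CPM in D419N (median 502.9) against 335.7 to 521.4 CPM in STAT6 WT (median 440.6). In N421K, NDUFC1 (0.25), ATP5MC2 (0.16), COX8A (0.13) and MT-ND6 (0.31, adjusted p = 0.015) were higher, and 2 members were lower. The COX8A call was lost in 11 of 15 alternatives, that of ATP5MC2 in 4, of MT-ND6 in 3 and of NDUFC1 in 1. NDUFC2, a membrane-arm subunit of complex I, had 44.8 to 75.3 CPM in N421K (median 57.2) and 60.6 to 96.8 CPM in STAT6 WT (median 73.4), a log2 fold change of −0.33 (adjusted p = 0.0013). ATP5MK, a small ATP synthase subunit of the dimer interface, had a value of −0.20 (adjusted p = 0.022).

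The medians of mitochondrial and nuclear members lay apart in D419N and N421K, with at most 1 mitochondrial call, and this distance was not tested. The SD of the mitochondrial median between libraries of the same construct and time point was 0.16 on the log2 scale. In D419N, 10 of 13 mitochondrial values were negative (median −0.06) and 63 of 77 nuclear values positive (median 0.06). In N421K, all 13 mitochondrial values were positive (median 0.09), and the nuclear median was 0.00. A direct test among the 3 mutants called no member (0 of 90, against 2.39% of all genes). Unadjusted p-values were under 0.05 for 4 mitochondrial and 14 nuclear members, and DESeq2 called 5. The smallest adjusted p was 0.0536, for ATP5MK and NDUFC2, followed by ATP5F1A at 0.105.

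Genes that serve the respiratory chain were counted by pathway. Across time points, 6.74% of all genes tested were higher and 6.62% lower in STAT6 MUT. Among 12 tested genes of mitochondrial transcription and DNA maintenance, 2 were higher in STAT6 MUT across time points. The first was TFAM, which packages mitochondrial DNA and acts with POLRMT in its transcription (log2 fold change 0.23, adjusted p = 0.00155). The other was POLG2, the accessory subunit of the mitochondrial DNA polymerase (0.31, adjusted p = 0.00847). At 2 h the values were 0.36 (adjusted p = 0.00206) and 0.66 (adjusted p = 0.000471), and at 8 h −0.01 and −0.02, not called. From 2 to 8 h both fell in STAT6 MUT (−0.38 and −0.48), whereas in STAT6 WT the values were −0.03 and 0.23, not called. POLRMT, the mitochondrial RNA polymerase, rose from 2 to 8 h by 0.33 in STAT6 WT (adjusted p = 0.0134) and by 0.59 in STAT6 MUT (adjusted p = 0.000107).

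Of 47 tested assembly factors 4 were lower in STAT6 MUT across time points (SDHAF1, COA6, COA4 and NDUFAF8, from −0.25 to −0.13) and none higher (0). Of all genes, 6.62% were lower and 6.74% higher. Of 72 mitochondrial ribosomal proteins 6 were lower and 0 higher, with MRPL4 at −0.26 (adjusted p = 1.66e-06). Of 17 genes of mitochondrial RNA processing 0 were called by edgeR (2 with an unadjusted p under 0.05). Among 8 electron carriers and enzymes that feed the chain, SQOR, which oxidises sulfide to quinone-bound electrons, was lower (−0.56, adjusted p = 0.000514), with values of −0.17 for D419G, −0.18 for D419N and −1.35 for N421K taken singly. Among 7 transcriptional regulators YY1 (0.13) and GABPA (0.27) were higher, and among 17 genes of pyruvate dehydrogenase and the citric acid cycle FH was higher (0.16) and IDH3A lower (−0.23).

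Over time, calls among mitochondrial ribosomal proteins were mostly upward. Of all genes, 15.2% were higher and 15.6% lower at 8 h in STAT6 WT, and 17% and 17.1% in STAT6 MUT. From 2 to 8 h, 22 of 72 mitochondrial ribosomal proteins rose and 1 fell in STAT6 WT (median log2 fold change 0.11), and 24 rose and 2 fell in STAT6 MUT (median 0.16). In mitochondrial RNA processing, 7 of 17 genes rose and 1 fell in STAT6 WT, and 5 rose and 1 fell in STAT6 MUT. TBRG4 rose by 0.28 and 0.65, and LONP1, the matrix protease, fell by 0.38 and 0.33. Of the 47 assembly factors 10 rose and 6 fell in STAT6 WT, and 8 rose and 2 fell in STAT6 MUT.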

How the data were processed

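Per the labels and the study's methods, the authors made 3′ libraries by prime-seq, sequenced them on an Illumina HiSeq and derived the deposited UMI counts per gene with the Drop-seq pipeline. The submitters' processing notes name hg38. Not given in the sources used here are the aligner, gene annotation and strand setting. The authors tested counts with DESeq2 and pooled the mutants.

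Here the deposited counts were filtered (filterByExpr), scaled by TMM and tested with edgeR 4.0.16 in R 4.3.3 (quasi-likelihood, Benjamini-Hochberg adjusted over all genes tested). All 54 libraries entered the fits across time points, of single mutants (each with time point as a covariate) and of the interaction. The 18 libraries of a time point or the 27 of a genotype entered the others, with the mutant as a covariate over time in STAT6 MUT. Single members were also compared at each time point by an exact permutation test on log2 CPM, 9 against 9 libraries. Its p-values were Benjamini-Hochberg adjusted over 42 tests. Alternatives used DESeq2 1.42.0, limma 3.58.1 (voom), other scalings and filters, a replicate block and left-out libraries. The script was tested on simulated data. Named genes were the mitochondrial members, the leading called nuclear members of each complex, the smallest p-values of the interaction and among the mutants, and isoforms of the same subunit. Others were chosen after their values were seen. Members and lists were chosen with earlier results of these data known. Replicates are those numbered in the labels, and p-values measure the spread between these libraries. Sequences and motifs were read with Python 3.11.15 and Biopython 1.88. The 95% intervals of fold changes come from the edgeR standard errors and carry the spread between libraries, whereas the floor of 3 counts covers counting error only. Some genes were counted in the totals and are not reported here singly.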

Additional observations from a re-analysis of the deposited data

Results flagged for a closer look

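In groups of 9 libraries, a library was marked where its gap to the nearest other library took up more of the group's range than Dixon's critical value allows. This held in 16 of 186 groups over 31 measures, where chance marks about 1 in 20 groups, or 9.3. Of the 16 values, 10 came from shallow libraries, with under 0.5 of the median total.

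In the shallow STAT6 WT library of replicate 6 at 2 h, MT-ND5 (79.3 CPM) and MT-CYB (1814 CPM) were lowest and ATP5MC1 (420.7 CPM) and COX7A2L (189.0 CPM) highest. In the STAT6 WT library of replicate 8 at 4 h, MT-ND3 (476.7 CPM), MT-ND4L (99.6 CPM) and MT-ND5 (281.3 CPM) were highest. In the shallowest library, D419N replicate 3 at 8 h, ATP5MK (201.7 CPM) was highest among the STAT6 MUT libraries.

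Other shallow libraries gave NDUFS4 at 0 CPM (D419G replicate 3, 4 h), ATP5F1A at 333.0 CPM as the lowest value (D419G replicate 2, 4 h), ATP5MC1 at 377.4 CPM (N421K replicate 2, 8 h), UQCRC2 at 174.8 CPM (D419N replicate 2, 2 h) and SDHC at 156.8 CPM (STAT6 WT replicate 2, 8 h). The remaining values were MT-ND3 at 488.9 CPM (D419N replicate 1, 2 h), ATP5MK at 93.2 CPM as the lowest value (STAT6 WT replicate 7, 4 h) and NDUFC1 at 247.3 CPM (STAT6 WT replicate 1, 8 h).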

How the results depend on the processing

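Direction and side of the threshold depended on the processing mainly through the count of members called. Across time points (6 called) it was 3 with no count filter and 1 without N421K. At 2 h (7) it was 4 with DESeq2, 4 with no count filter, 4 without D419N, 2 without N421K and 13 with the log2 total count as a term, an alternative added after seeing the data. At 4 h (1) it was 3 without D419N and 0 without N421K, and at 8 h (0) it was 1 with no count filter, without the shallow libraries or without D419N. From 2 to 8 h in STAT6 WT (11) it was 7 with DESeq2 and 6 with no count filter. The interaction (0) had 1 with no count filter, D419G (2) had 1, and the difference among the mutants (0) had 5 with DESeq2, 2 with no count filter and 2 without the shallow libraries. With 1 replicate number left out, the counts were 4 to 6 across time points, 3 to 10 at 2 h, 0 to 1 at 4 h, 0 to 2 at 8 h, 6 to 11 in STAT6 WT and 15 to 22 in STAT6 MUT from 2 to 8 h, 0 to 1 for the interaction, 0 to 2 in D419G, 0 to 5 in D419N, 4 to 10 in N421K and 0 to 1 among the mutants. The median nuclear log2 fold change from 2 to 8 h in STAT6 MUT was −0.024 with total counts only. The causes were not tested.

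Libraries with the same replicate number did not deviate together (median correlation 0.0039 within a time point and −0.0117 within a line), so the numbers were taken as names only. With replicate number as a replicate block, members called were 2 across time points, 2 at 2 h and 0 at 4 h. In the fits of single mutants they were 0 in D419G, 1 in D419N, 6 in N421K and 1 among the mutants. From 2 to 8 h in STAT6 MUT the block was line and replicate number together, and 28 members were called. Most replicate numbers occur only in STAT6 WT, so a block of replicate number takes those libraries out of the comparisons of mutants with STAT6 WT. Leaving out a number that occurs in the mutants removes a library of each mutant at each time point, and leaving out any other removes only STAT6 WT libraries.

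Of the gene values under alternatives, 1466 kept direction and call, 260 lost the call, 33 gained it and 47 changed sign, all 47 for genes not called as reported. For the log2 fold change across time points, these were MT-ATP6 at −0.00311 to 0.07201 (a replicate number left out), MT-CO1 at 0.02159 (without D419N), −0.1751 to 0.02622 (a replicate number left out), MT-CO2 at −0.005468 (pseudogene counts added), −0.005638 (without shallow libraries), MT-CO3 at −0.007796 (no count filter), −0.009041 (pseudogene counts added), −0.04053 (without N421K), −0.01661 to 0.03163 (a replicate number left out), MT-CYB at −0.03951 (without N421K), −0.008678 to 0.05075 (a replicate number left out), MT-ND1 at 0.01034 (total count as a term), 0.006984 (without D419G), 0.01738 (without D419N), −0.02566 to 0.01551 (a replicate number left out), MT-ND2 at 0.02238 (total count as a term), 0.03396 (without D419N), −0.09951 to 0.01619 (a replicate number left out) and MT-ND3 at −0.05773 (without N421K), −0.03584 to 0.1301 (a replicate number left out). For the log2 fold change at 2 h, these were MT-CO1 at −0.008372 (pseudogene counts added), −0.006768 (total counts only), −0.05082 (without D419G), −0.08097 (without N421K), −0.1055 to 0.07806 (a replicate number left out) and MT-ND6 at −0.07028 to 0.3586 (a replicate number left out). For the log2 fold change from 2 to 8 h in STAT6 WT, these were MT-CYB at −0.004258 to 0.05345 (a replicate number left out), MT-ND3 at −0.1676 to 0.04923 (a replicate number left out) and MT-ND5 at 0.003189 (DESeq2), 0.01324 (total count as a term), 0.01789 (no count filter), 0.03533 (replicate block), 0.02921 (total counts only), −0.03665 to 0.03748 (a replicate number left out). For the log2 fold change from 2 to 8 h in STAT6 MUT, these were MT-CO2 at 0.02222 (total counts only), MT-ND1 at 0.03132 (total counts only), MT-ND4 at 0.02957 (total counts only) and MT-ND4L at −0.2469 to 0.03347 (a replicate number left out).

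Depth limited low-count members such as NDUFS4, NDUFA7 and MT-ATP8. Reads shared with the chromosome 1 copies limited MT-CO1, MT-CO2, MT-CO3, MT-ATP6, MT-ND1 and, to a smaller extent, MT-ND2.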
